A study of Macaca mulatta with 4 samples.

Results

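The cells described here are proliferating NK and T cells from the blood of diabetic rhesus macaques (Macaca mulatta) that were given islets made from human pluripotent stem cells (hCiPSC-islets). They are the barcodes to which the authors' deposited annotation gives the label of proliferating NK/T cell, and there were 81 of them among 6993 annotated peripheral blood mononuclear cells. Single-cell RNA was counted as unique molecular identifiers (UMIs, 1 per captured RNA molecule) in 4 libraries, each the only library of its group. Pre-IS was taken before immunosuppression and Post-IS after immunosuppression but before transplantation. The remaining libraries, 4 wpt and 8 wpt, were taken 4 and 8 weeks after transplantation. The sources used here name neither the immunosuppressive drugs nor the animals' ages, and they do not say whether the libraries came from 1 animal. Library, time and treatment therefore cannot be told apart, and no difference below has a replicate check or a p-value. The class held 8 cells in Pre-IS, 2 in Post-IS, 41 in 4 wpt and 30 in 8 wpt. It was set against the T cells (841, 115, 889 and 1174) and the NK cells (257, 9, 270 and 659) of the same libraries.

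Lymphocytes that have been activated leave a resting state, copy their DNA in S phase, and separate the copies on a microtubule spindle in mitosis. Passage through these phases is driven by cyclins bound to cyclin-dependent kinases, and each phase has its own transcripts, from nucleotide synthesis enzymes and replicative helicase subunits to kinesins and kinetochore proteins. In blood most T and NK cells are at rest, and dividing cells are taken as a sign of an ongoing response or of homeostatic renewal. Clustering of single cells often places dividing T and NK cells together, because the cell cycle programme they share outweighs the genes that separate the lineages.

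Cells with the label made up 0.415% (exact 95% interval 0.179 to 0.816) of all cells in Pre-IS. Among NK, T and proliferating cells alone the share was 0.723% in Pre-IS and 1.59% in Post-IS, the latter from 2 cells. On that denominator of NK, T and proliferating cells it was 3.42% (2.46 to 4.61) in 4 wpt and 1.61% (1.09 to 2.29) in 8 wpt. The intervals of 4 wpt and 8 wpt did not overlap on this denominator, but they did on that of all cells (1.57 to 2.94% and 0.786 to 1.66%), and the Post-IS interval, 0.193 to 5.62%, covered all the other shares. All intervals in this text cover counting error only. Depth differed as well: the median T cell had 1526, 1257, 3626 and 1810 UMIs in Pre-IS, Post-IS, 4 wpt and 8 wpt. The part of depth in these shares was not tested. The 4 libraries had 25 barcodes in common between pairs of them, and none of these carried the label.

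**Figure D1:**
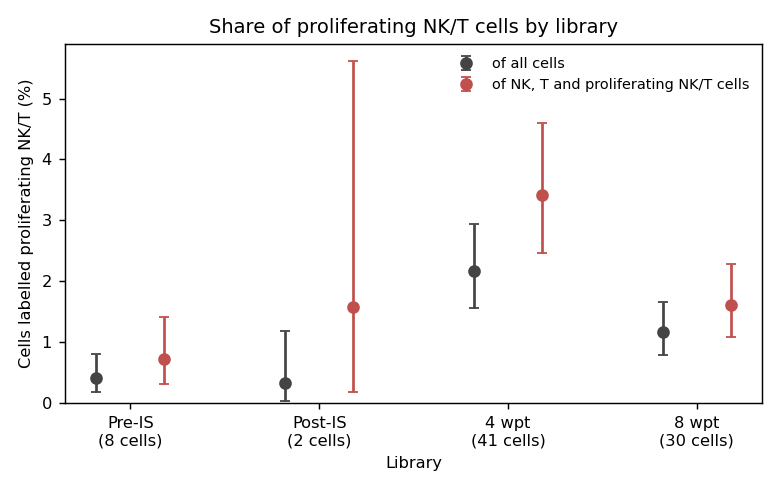
Share of cells with the proliferating NK/T label in each library, in percent, of all cells and of NK, T and proliferating cells, with exact 95% binomial intervals. The 4 wpt library had the highest share on both denominators, 2.18% and 3.42%, and the Post-IS interval is wide because only 2 cells carried the label.

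The label was set on these same cells, so the levels of its markers describe it and do not test it. Levels are given as CPM, counts scaled to a total of 1000000 UMIs of the class in that library, from UMIs summed over its cells. MKI67, which coats mitotic chromosomes and marks cycling cells, was at 729 CPM in Pre-IS (35 UMIs), 551 in 4 wpt (175 UMIs in 35 of 41 cells) and 662 in 8 wpt (93 UMIs in 25 of 30 cells). In Post-IS none of 2510 UMIs was MKI67, which by an exact Poisson interval still allows 1470 CPM. T cells were at 20.5 and 5.82 CPM and NK cells at 27.6 and 9.20 CPM in 4 wpt and 8 wpt, far below the label in both. TOP2A, the topoisomerase that untangles replicated DNA, was at 146, 264 and 320 CPM in Pre-IS, 4 wpt and 8 wpt, and RRM2, a subunit of ribonucleotide reductase, was at 854, 626 and 769 CPM. In Post-IS the pair had 1 and 4 UMIs. All 3 genes were thus present in the proliferating cells of Pre-IS, 4 wpt and 8 wpt, while T cells stayed at or below 4.73 CPM for TOP2A and RRM2 in 4 wpt and 8 wpt.

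The lineage markers fell between those of the T and NK cells. CD3E, a chain of the T cell receptor complex, was at 733 and 776 CPM in 4 wpt and 8 wpt, against 1076 and 1236 in T cells and 138 and 160 in NK cells. KLRD1, the CD94 receptor of NK cells and some cytotoxic T cells, was at 645 and 627 CPM, against 214 and 485 in T cells and 1794 and 2463 in NK cells. The cells are separated by lineage further below.

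At least 2 of MKI67, TOP2A and RRM2 were detected in 6 of 8 labelled cells in Pre-IS, none of 2 in Post-IS, 31 of 41 in 4 wpt (75.6%) and 25 of 30 in 8 wpt (83.3%). In T cells this held for 7 of 889 and 0 of 1174 cells in 4 wpt and 8 wpt, in NK cells for 3 of 270 and 2 of 659, and for 0 of 312 and 0 of 346 CD14+ monocytes, which are not expected to cycle in blood and had a median of 3190 and 2853.5 UMIs. The labelled cells were deeper: their median was 6973 and 3484 UMIs per cell in 4 wpt and 8 wpt, 1.92-fold that of T cells in both. After each cell was thinned to 1000 UMIs, 12 of 40 and 12 of 30 labelled cells still had at least 2 of the 3 genes, against 1 of 854 and 0 of 1122 T cells. The label also held most of the signal: 76.2% of the UMIs of these 3 genes in NK, T and proliferating cells of 4 wpt (458 of 601) and 85.1% in 8 wpt (246 of 289) came from its cells.

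Among markers of other blood cells, those of B cells and monocytes were near or below the level of T cells. Summed over each list, B cell markers were at 18.9 and 35.6 CPM in 4 wpt and 8 wpt, against 22.7 and 27.3 in T cells, and 10 monocyte markers were at 126 and 128 CPM against 184 and 192. Other lists were above T cells, but not all of them were above NK cells. Plasmablast markers were at 148 and 399 CPM (T cells 111 and 106, NK cells 220 and 191). Red cell markers were at 318 and 242 CPM (T cells 56.1 and 153, NK cells 654 and 275). Progenitor markers were at 324 and 135 CPM (T cells 169 and 115, NK cells 245 and 166). The red cell sum came from HBA, an alpha globin (63 and 15 UMIs), and CA1 (38 and 19 UMIs), which is followed below. Of the 81 cells, 3 that are described at the end held all UMIs of JCHAIN, KLF1, GATA1 and CD34 under the label.

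A gene was called higher or lower where the exact 95% interval of its CPM ratio lay wholly beyond 1.5-fold, with at least 20 UMIs over both classes. The threshold describes counting error in these libraries only. By it, 582 of 8611 genes (6.76%) were higher in proliferating cells than in T cells in 4 wpt and 224 (2.6%) lower, and in 8 wpt 372 of 7846 (4.74%) were higher and 104 (1.33%) lower. In both libraries 264 of 7774 genes (3.4%) were higher and 78 (1%) lower. Against NK cells 216 of 6196 genes (3.49%) were higher in both libraries and 70 (1.13%) lower. Higher than both T and NK cells in both libraries were 172 of 6128 genes (2.81%), and 12 (0.196%) were lower than both. In single libraries 305 of 6601 (4.62%) were higher than both and 48 (0.727%) lower in 4 wpt, and 239 of 6432 (3.72%) and 24 (0.373%) in 8 wpt. Since the label was set by clustering these same cells, these counts describe it and test nothing. Scaling by the trimmed mean of M values (TMM) in place of total UMIs moved the median log2 ratio of all genes by −0.19 and −0.27 over T cells and by −0.09 and −0.17 over NK cells in 4 wpt and 8 wpt. Under it the split over T cells was 199 higher and 130 lower in place of 264 and 78, over NK cells 183 and 102 in place of 216 and 70, and over both 139 and 25 in place of 172 and 12.

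Genes of DNA replication were higher together. Summed over the 40 genes of the list, they were at 3212 and 4423 CPM in 4 wpt and 8 wpt, against 553 and 623 in T cells. Counts and medians of a list cover only the members with at least 20 UMIs over both classes. A gene that T cells nearly lack reaches this minimum only where it is high in the label, so these counts describe those members and are no support. In 4 wpt 30 replication genes reached it, and 24 were higher than in T cells, with a median log2 ratio of 2.82 where that of all genes was 0.10. In 8 wpt 17 of 25 were higher, with a median of 3.22 where that of all genes was 0.18, and none was lower in either library. PCLAF, a small partner of the replication clamp, was at 352 and 620 CPM in 4 wpt and 8 wpt against 0.946 and 0.448 in T cells and 6.67 and 6.69 in NK cells. PCNA, the clamp itself, was at 393 and 456 CPM against 37.8 and 49.2 in T cells, 10.4-fold and 9.26-fold higher. The helicase subunits MCM2, MCM4 and MCM5 were 14.5-fold, 22.3-fold and 13.1-fold higher than in T cells in 4 wpt and 45.1-fold, 31.8-fold and 21-fold higher in 8 wpt. The clamp thus differed less from resting T cells, which carry it at a moderate level, than its partner, which T cells nearly lack.

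Enzymes that supply nucleotides followed. The 22 genes of this list summed to 4118 and 4188 CPM against 1757 and 1587 in T cells. Of those compared 13 of 22 were higher than in T cells in 4 wpt and 8 of 20 in 8 wpt, with medians of 1.68 and 1.09. TYMS, thymidylate synthase, was at 356 and 335 CPM against 3.47 and 0 in T cells, 102-fold higher (55.2 to 211) in 4 wpt and at least 249-fold in 8 wpt, where T cells had no UMI and a floor of 3 UMIs was set in their place. RRM2 was 132-fold (78.3 to 241) and 430-fold higher than in T cells. TK1, which salvages thymidine, was at 81.8 and 135 CPM and had no UMI in T or NK cells of either library, at least 86.5-fold higher than T cells in 4 wpt. In 8 wpt it missed the minimum of 20 UMIs.

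Mitotic genes were higher as well. The 45 spindle and kinesin genes in the files summed to 8183 and 10170 CPM in 4 wpt and 8 wpt, against 678 and 712 in T cells and 714 and 702 in NK cells. Of the 29 and 18 that reached the minimum, 28 were higher than in T cells in 4 wpt and 16 in 8 wpt, with medians of 4.62 and 4.57, and over NK cells 25 of 26 and 15 of 17. Of 27 mitotic kinase and checkpoint genes 13 and 8 reached the minimum, and 12 and 7 of these were higher. BIRC5, the survivin subunit of the chromosomal passenger complex, was at 157 and 178 CPM, had 0.315 and 0 CPM in T cells, and had no UMI in NK cells. SPC25, part of the kinetochore complex that grips microtubules, was at 195 and 363 CPM against 0.946 and 0.448 in T cells. NUSAP1, which bundles spindle microtubules, was at 176 and 377 CPM, 112-fold and 281-fold higher than in T cells. The motor KIFC1 was 105-fold and 99.5-fold higher, and CENPF, a kinetochore protein of G2 and mitosis, 10.8-fold and 12.9-fold. CENPF differed less than the others, and T cells carried more of it, at 26.5 and 14.3 CPM.

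Cyclins and chromatin genes completed the programme. Of 15 cyclin and kinase genes compared, from 24 in the files, 12 were higher than in T cells in 4 wpt, and 9 of 12 in 8 wpt. CCNA2, the cyclin of S and G2 phase, was at 223 and 264 CPM, 39.4-fold and 45.3-fold higher than in T cells. CDK1, the mitotic kinase, was at 129 and 299 CPM, 15.2-fold and 33.4-fold higher, and CCNB1, its mitotic partner, was at 37.8 and 71.2 CPM, 4.99-fold and 9.36-fold higher. CDKN3, a phosphatase of CDKs, was 38.5-fold and 31.8-fold higher and CDKN2C, an inhibitor of CDK4 and CDK6, 11.6-fold and 10.9-fold, within a list of inhibitors and quiescence genes that was mixed, as given below. Histone and chromatin assembly genes were higher for 13 of 15 genes in each library, condensin, cohesin and centromere genes for 19 of 20 and 16 of 18, and repair genes for 9 of 14 and 7 of 10. UHRF1, which carries DNA methylation through replication, was at 110 and 164 CPM, 175-fold higher in 4 wpt and at least 122-fold in 8 wpt. Other genes of the programme that T cells also carry were STMN1, which destabilises microtubules, at 2624 and 3575 CPM against 135 and 166 in T cells, and HMGB2, a chromatin protein, at 2347 and 2350 CPM against 164 and 183. CPM counts molecules and is not per transcript length, so levels are compared between classes for 1 gene at a time.

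**Figure D2:**
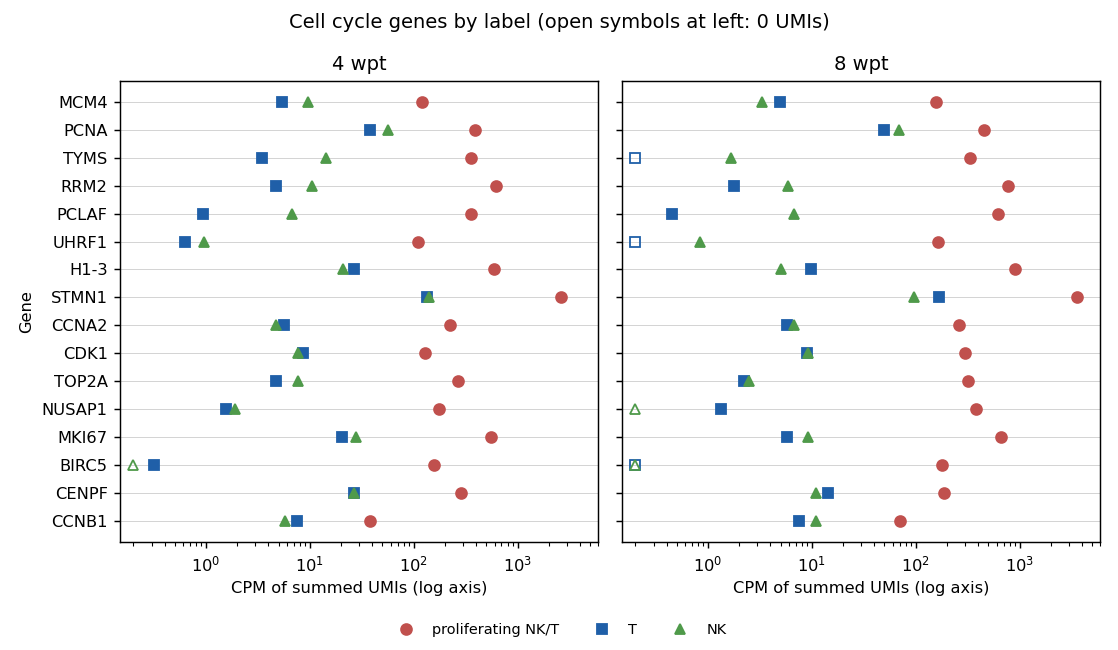
Levels of cell cycle genes, in CPM on a logarithmic axis, in proliferating NK/T cells, T cells and NK cells of 4 wpt and 8 wpt, where open symbols at the left mark classes with 0 UMIs. In 4 wpt and 8 wpt proliferating cells lie above T and NK cells for every gene plotted, as with MKI67 at 551 and 662 CPM against 20.5 and 5.82 in T cells.

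Genes of energy metabolism were higher to a smaller degree. The respiratory chain list summed to 13522 and 13944 CPM in 4 wpt and 8 wpt, against 9016 and 9284 in T cells, and 11 and 7 of its 37 genes were called higher, with medians of 0.81 and 0.68. ATP5MC3, a subunit of the ATP synthase rotor, was at 629 and 769 CPM, 2.62-fold and 2.92-fold higher than in T cells. In glycolysis 5 of 15 genes were higher in each library. GAPDH was at 2457 and 2578 CPM against 1199 and 1136 in T cells, and LDHA, which makes lactate, was 2.97-fold and 2.66-fold higher. Among 30 proteasome genes 9 were higher in 4 wpt and 1 (3.33%) in 8 wpt, with medians of 0.80 and 0.62. Of all genes 6.76 and 4.74% were higher than in T cells. Over NK cells 9 and 6 of 37 respiratory chain genes and 2 of 14 glycolysis genes in each library were higher. For the proteasome it was 3 and 1 of 30, where 5.74 and 4.76% of all genes were higher. On the NK side alone, defined below, these counts over NK cells were 0 and 1, 0 and 2, and 1 and 0. Of all genes 3.18 and 2.37% were higher there. FABP5, a fatty acid carrier, was at 368 and 413 CPM against 60.2 and 54.2 in T cells and 12.4 and 15.1 in NK cells. Ribosome biogenesis genes were mostly not called, with 4 of 26 higher in 4 wpt, 3 of 25 in 8 wpt, and 1 lower in each.

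**Figure D3:**
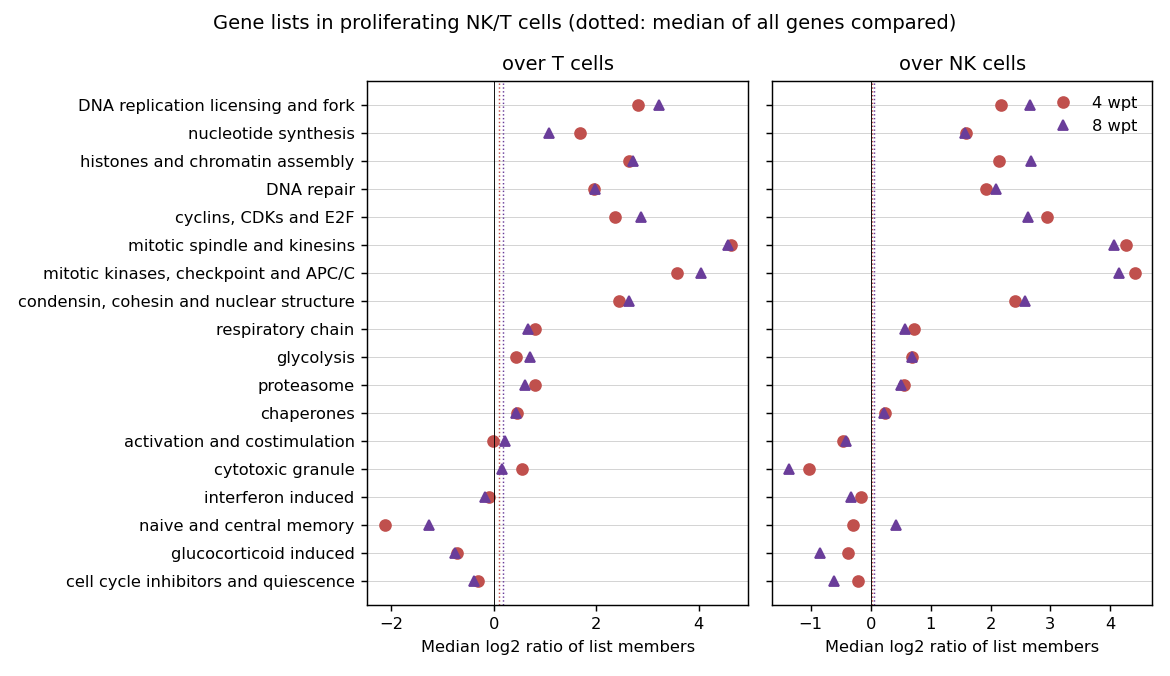
Median log2 ratio of 18 of the gene lists, over the members that reached 20 UMIs, in proliferating NK/T cells over T cells and over NK cells, in 4 wpt and 8 wpt, with the median of all genes as dotted lines. The cell cycle lists lie to the right, the spindle list at 4.62 and 4.57 over T cells, and of the lists plotted the naive and central memory list lies lowest over T cells, at −2.13 and −1.26.

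Genes of resting and circulating T cells were lower than in T cells. In the naive and central memory list 8 of 13 genes were lower in 4 wpt and 3 of 12 in 8 wpt, and none was higher. CCR7, the receptor that brings naive T cells into lymph nodes, was at 22 and 35.6 CPM against 387 and 306, 17.6-fold (8.49 to 43.8) and 8.6-fold (3.67 to 26.6) lower. IL7R, the receptor for the survival cytokine IL-7, was at 160 and 249 CPM against 1102 and 874, 6.87-fold and 3.51-fold lower. LTB, lymphotoxin beta, was 5.45-fold and 3.67-fold lower. TCF7 and LEF1, transcription factors of naive T cells, were called lower in 4 wpt and not in 8 wpt. In 8 wpt TCF7 was at 42.7 CPM against 121 in T cells, with an interval that reached inside 1.5-fold. With the T side alone, defined below, the median of the list over T cells was −1.76 in 4 wpt, with 7 of 13 lower, and −0.62 in 8 wpt, with 3 of 12 lower. CCR7, IL7R and LTB were still called lower there, by 12.2-fold, 5.05-fold and 3.97-fold in 4 wpt and 5.51-fold, 2.25-fold and 2.35-fold in 8 wpt. Over NK cells the median of the whole class was −0.29 and 0.42, and that of the NK side alone −1.72 and −0.88.

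BTG1 and TXNIP were lower as well. BTG1, an antiproliferative gene of quiescent lymphocytes, was at 305 and 221 CPM against 1208 and 1133 in T cells. TXNIP, which restrains glucose uptake, was at 164 CPM in both libraries, against 567 and 607 in T cells and 964 and 903 in NK cells. MYC, a driver of growth and of cell cycle entry, was also lower than in T cells, at 22 and 7.12 CPM against 80.4 and 82.8, though on the T side alone, at 22.7 and 11.1 CPM, it was not called. The quiescence list as a whole was mixed, with 3 genes higher and 5 lower of 20 in 4 wpt and 1 higher and 3 lower of 18 in 8 wpt. Ribosomal protein genes took 18.9 and 18.8% of all UMIs of the proliferating cells in 4 wpt and 8 wpt, against 30.0% of those of T cells in each library and 23.1 and 22.2% of those of NK cells.

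Of the glucocorticoid-induced genes 5 of 13 were lower than in T cells in 4 wpt and 2 of 11 in 8 wpt, where 2.6 and 1.33% of all genes were, and none was higher. IL7R and TXNIP, described above with the naive and quiescence genes, belong to this list as well. They were among the 5 genes of 4 wpt and were the 2 genes of 8 wpt. TSC22D3, a gene that glucocorticoids induce, was at 236 CPM against 584 in 4 wpt, a called difference, and at 242 against 412 CPM in 8 wpt, which was not called. In the list of IL-2, JAK-STAT and calcineurin genes 2 of 21 were lower in 4 wpt and 1 of 22 in 8 wpt, with medians of −0.22 and −0.05. Of the activation genes 4 of 18 were higher and 1 lower in 4 wpt and 3 of 16 higher and 1 lower in 8 wpt, where 6.76 and 4.74% of all genes were higher, and the list medians were −0.01 and 0.23. Of 26 interferon-induced genes 1 was higher and 1 lower in 4 wpt, and none of 21 was called in 8 wpt.

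Against NK cells the proliferating cells had less of the cytotoxic programme. The 15 cytotoxic granule genes summed to 11288 and 9550 CPM in 4 wpt and 8 wpt, between T cells (5598 and 7285) and NK cells (34823 and 33427). Of these, 9 of 15 were lower than in NK cells in each library and none was higher. Of all genes in single libraries, 382 of 6653 (5.74%) were higher than in NK cells in 4 wpt and 186 (2.8%) lower, and 311 of 6532 (4.76%) and 116 (1.78%) in 8 wpt. GZMB, the granule protease granzyme B, was at 3275 and 2649 CPM against 11206 and 10804, 3.42-fold and 4.08-fold lower. GNLY, the pore-forming granulysin, was 4.07-fold and 4.08-fold lower, and KLRB1, the CD161 receptor, 7.52-fold and 7.02-fold. FCER1G and TYROBP, adaptor chains of NK receptors, were 7.28-fold and 4.16-fold lower in 4 wpt and 6.39-fold and 5.15-fold lower in 8 wpt. CTSW, a cathepsin of cytotoxic lymphocytes, was at 94.4 and 42.7 CPM, lower than in NK cells and also 2.52-fold and 4.7-fold lower than in T cells in both libraries. GZMK, another granzyme, was called lower than in T cells in 4 wpt only, and GZMM in 8 wpt only.

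The sums above mix lineages, so the members were separated by their own UMIs, with a rule chosen after the values were seen. Cells with at least 3 UMIs of CD3D and CD3E formed the T side. Cells with none of these and at least 1 UMI of TYROBP, FCER1G, NCR1 or KLRD1 formed the NK side. The T side held 45 cells in all (5, 1, 25 and 14 in Pre-IS, Post-IS, 4 wpt and 8 wpt) and the NK side 23 (1, 0, 11 and 11). Another 10 cells lay between, and 3 had no UMI of these genes. In 4 wpt 61.0% of members (44.5 to 75.8) were on the T side and 26.8% on the NK side, and in 8 wpt 46.7% (28.3 to 65.7) and 36.7%, shares whose intervals overlapped. By the same rule 88.0 and 79.6% of T cells fell on the T side and 71.5 and 80.4% of NK cells on the NK side, so the rule leaves part of each class unplaced. It also put 42 of 270 NK cells (15.6%) in 4 wpt and 57 of 659 (8.65%) in 8 wpt on the T side, and 2 and 5 T cells on the NK side. The part of such cells in the NK and cytotoxic transcripts of the T side was not tested. In the T side 4 cells had only 3 or 4 CD3 UMIs, just inside the threshold. Differences between the sides in the genes that set the rule follow from it.

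**Figure D4:**
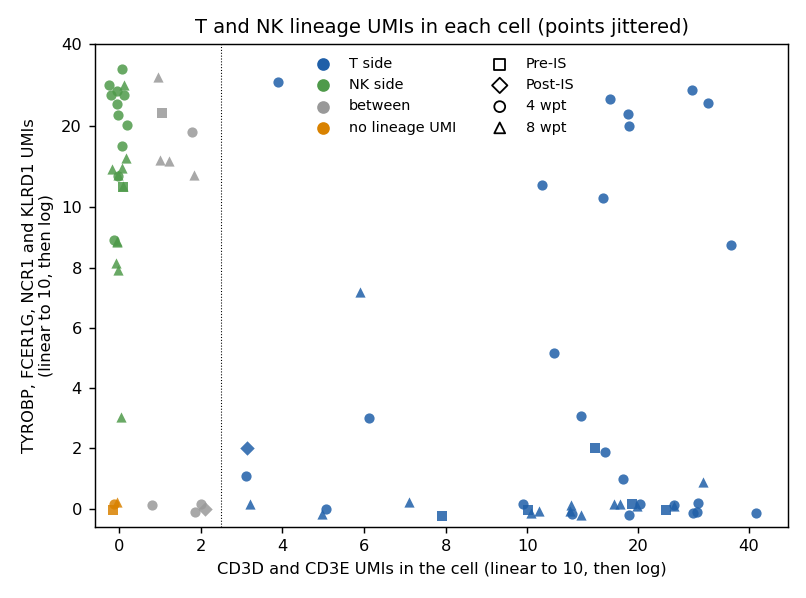
UMIs of CD3D and CD3E and of the NK genes in each proliferating NK/T cell, by library, with 1 point per cell, on axes that are linear to 10 UMIs and logarithmic above. Of the members, 45 lie on the T side and 23 on the NK side, and T-side cells that also hold many NK-gene UMIs are mainly from 4 wpt.

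Both sides were cycling. MKI67 was at 577 and 700 CPM on the T side in 4 wpt and 8 wpt and at 556 and 512 CPM on the NK side. RRM2 was at 473 and 689 CPM on the T side and 1112 and 874 on the NK side, and TOP2A at 214 and 245 against 463 and 512. Against T cells the T side had 197 genes higher (2.56%) and 51 lower (0.663%) in both libraries. Against NK cells the NK side had 77 higher (1.34%) and 9 lower (0.157%), from fewer cells and UMIs. In 4 wpt alone 193 of 6069 genes (3.18%) were higher on the NK side than in NK cells and 52 (0.857%) lower, and in 8 wpt 148 of 6248 (2.37%) and 12 (0.192%).

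The T side differed between 4 wpt and 8 wpt in its cytotoxic genes. GZMB was at 1400 CPM in 4 wpt (308 UMIs in 15 of 25 cells), near the 1265 CPM of T cells, and at 245 CPM in 8 wpt (22 UMIs in 4 of 14 cells), where T cells were at 2044 CPM. It was 8.36-fold lower than T cells in 8 wpt and 5.72-fold lower than in the T side of 4 wpt. GNLY was at 950 CPM in 4 wpt against 985 in T cells, and at 189 CPM in 8 wpt against 1127. The T cells of the same libraries went no lower for either gene, and the gap to them lay at 8 wpt. PRF1, perforin, was at 232 CPM (51 UMIs in 11 cells) and then 11.1 CPM, from 1 UMI, and CCL5, a chemokine of cytotoxic and memory cells, was at 423 CPM (93 UMIs in 11 cells) and then also 11.1 CPM, from 1 UMI. T cells were at 243 and 290 CPM for PRF1 and at 373 and 493 CPM for CCL5. KLRD1 was at 445 CPM, 2.08-fold above T cells, in 4 wpt, and at 77.8 CPM in 8 wpt, where all 7 UMIs lay in 1 cell. HOPX, a transcription cofactor of effector T cells, was at 464 CPM in 18 of 25 cells and at 44.5 CPM in 3 of 14, 2-fold above and 5.21-fold below T cells. TYROBP, an NK gene that many T cells also carried, moved with them, at 391 CPM (86 UMIs in 12 cells) and then 11.1 CPM from 1 UMI, against 371 and 481 CPM in T cells. The part of any T and NK cells captured together in these values was not tested.

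Over the list the same direction held. Of 15 cytotoxic genes in the T side 2 were lower than in T cells in 4 wpt, with a median log2 ratio of 0.13, and 7 in 8 wpt, with a median of −1.29. For all genes 289 of 7771 (3.72%) were higher in the T side than in T cells in 8 wpt and 98 (1.26%) lower, and in 4 wpt 474 of 8525 (5.56%) and 162 (1.9%). Between the libraries within the T side, 12 of 2357 genes (0.509%) were higher in 8 wpt and 44 (1.87%) lower. Among the cytotoxic genes 4 of 13 were lower and none higher, with a median of −1.10. In the NK side, where 3 of 882 genes (0.34%) were higher in 8 wpt and 6 (0.68%) lower, none of 11 cytotoxic genes was called, and the median was 0.10. The T side of 8 wpt held 14 cells, and median depth was 7114 UMIs per cell in 4 wpt and 5241.5 in 8 wpt.

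Genes that mark T cell subsets were read on the same cells. CD8A, the coreceptor of cytotoxic T cells and many macaque NK cells, was seen in 11 of 25 T-side cells in 4 wpt and in 1 of 14 in 8 wpt (232 and 66.7 CPM, T cells 226 and 192), shares whose exact intervals, 24.4 to 65.1% and 0.181 to 33.9%, overlapped. CD4, the helper coreceptor, was seen in 11 of 25 and 5 of 14 (100 and 88.9 CPM, T cells 102 and 88.2). In 4 wpt 10 cells had CD4 without CD8A and 10 the reverse, whereas in 8 wpt 5 had CD4 without CD8A and 1 the reverse, and 8 had neither. ICOS, a costimulatory receptor of activated and helper T cells, was at 40.9 CPM in 4 wpt (6 of 25 cells) and 167 CPM in 8 wpt (9 of 14 cells), where it was 3.03-fold above T cells. CTLA4, an inhibitory receptor, was seen in 0 and 4 cells, and FOXP3, the regulatory T cell factor, in 0 and 1. PDCD1, the PD-1 receptor, went the other way, with 20 UMIs in 9 cells in 4 wpt and none in 8 wpt. At 8 wpt the cycling T cells sampled thus had fewer granule transcripts, and whether this reflects the time, the animal or the few cells cannot be told apart.

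Between the sides, 52 of 2312 genes (2.25%) were higher on the T side in 4 wpt and 79 (3.42%) lower, and in 8 wpt 41 of 941 (4.36%) and 37 (3.93%). In both libraries 23 of 939 (2.45%) were higher and as many (2.45%) lower, counts that include CD3D, CD3E, FCER1G, TYROBP and KLRD1, whose direction the rule fixed. Higher on the T side, beside genes that set the rule, were LTB, IL7R and GPR183, a receptor that guides lymphocytes within lymph nodes. Lower were GNLY, GZMB, GZMA, PRF1 and NKG7 of the granule genes, CD8A, and the tubulins TUBA1A and TUBB. Some genes were higher on the T side than both on the NK side and in T cells. COTL1, an actin-binding protein, was at 1291 and 1379 CPM, 2.86-fold and 4.54-fold above T cells, and at 26.5 and 0 CPM on the NK side. FABP5 was at 495 and 611 CPM, 8.23-fold and 11.3-fold above T cells. MT1E, a metallothionein that binds zinc and copper, was at 1041 and 1568 CPM, 2.58-fold and 4.14-fold above T cells, and at 291 and 241 CPM on the NK side.

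On the NK side the most abundant granule genes were not called against NK cells, which does not show that they were equal. GZMB was at 8908 and 6810 CPM, with UMIs in all 11 cells of each library, against 11206 and 10804 in NK cells, differences that were not called. GNLY was at 9014 and 9884 CPM and PRF1 at 913 and 603, also not called. Of 15 cytotoxic genes 3 were lower than in NK cells in 4 wpt (GZMK, GZMM and CTSW, by 3.06-fold, 16.8-fold and 3.62-fold) and none in 8 wpt, with medians of −0.33 and −0.28, and none was higher. Of 7 effector cytokine genes 2 were lower in each library, with medians of −0.99 and −1.49. CD8A was at 622 and 512 CPM, seen in 11 of 11 and 6 of 11 cells. Lower than in NK cells in both libraries were CMC1, a mitochondrial protein gene high in NK cells (2.56-fold and 2.63-fold), and TXNIP (4.28-fold and 2.72-fold). Over the whole class GZMB and GNLY were lower than in NK cells. On the NK side alone neither was called, though GZMB was still below NK cells in both libraries.

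CA1, carbonic anhydrase 1, known mainly from red cells, was found on the NK side. It was at 384 and 482 CPM there in 4 wpt and 8 wpt, against 58.1 and 30.1 CPM in NK cells, 6.6-fold (4.09 to 10.4) and 16-fold (8.29 to 29.6) higher. The T side was at 27.3 and 0 CPM and T cells at 0.946 and 0.448 CPM. The beta tubulin TUBB was also higher on the NK side, at 3164 and 4159 CPM against 1359 and 1523 on the T side.

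The share of UMIs on S phase genes and on G2 and mitosis genes varied from cell to cell. In the median proliferating cell S phase genes took 0.371% of UMIs in 4 wpt (0 to 0.931) and 0.626% in 8 wpt (0.0540 to 1.02), against 0.052 and 0.050% in T cells. G2 and mitosis genes took 0.718% (0.131 to 3.22) and 0.958% (0.135 to 2.49), against 0.143 and 0.154% in T cells. The lowest proliferating cell lay below the T cell median for both lists in 4 wpt and for G2 and mitosis genes in 8 wpt, and above it for S phase genes in 8 wpt. After thinning to 1000 UMIs the S and G2/M shares of a cell correlated weakly, with Pearson's r of 0.08 over 40 cells in 4 wpt and 0.155 over 30 in 8 wpt. At that depth a share rests on few UMIs. Counting error alone lowers such a correlation, so it cannot show whether the phases lie in different cells. The NK side of 4 wpt had a median G2/M share of 1.53%, against 0.691% on the T side, and in 8 wpt the sides were at 0.891 and 0.839%. No phase was called for single cells.

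**Figure D5:**
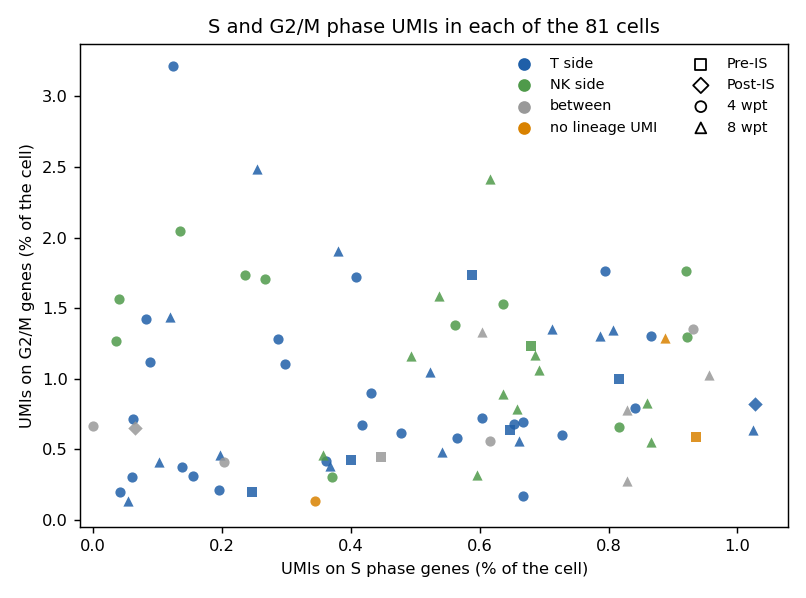
Share of each proliferating NK/T cell's UMIs from S phase genes and from G2/M genes, in percent, with 1 point per cell, its colour the side and its shape the library. The highest cells of 4 wpt and 8 wpt reach 0.931 and 1.02% for S genes and 3.22 and 2.49% for G2/M genes, and the cells spread over the plot without separate clusters.

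Most histone UMIs came from few cells. The 51 histone genes summed to 6753, 4011 and 3433 CPM in Pre-IS, 4 wpt and 8 wpt, against 370 and 214 CPM in T cells of the last pair. The median cell held 0.127 and 0.160% of its UMIs in them in 4 wpt and 8 wpt, and the highest cell 5.57 and 1.72%. The median T cell held 0.025 and 0%, so the difference was not confined to the highest cells. The 5 highest cells had 65.7 and 58.7% of all histone UMIs under the label. Replication-dependent histone messages are made in S phase, and most lack a poly(A) tail, so their capture varies with the kit. H1-3, a linker histone, was at 598 and 912 CPM against 26.8 and 9.85 in T cells, and was seen in 19 of 41 and 14 of 30 labelled cells. H4C3, a core histone H4 gene, was at 296 and 563 CPM against 24.3 and 8.50.

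Between 8 wpt and 4 wpt few genes differed within the class. Of 3454 genes 8 (0.232%) were higher in 8 wpt and 27 (0.782%) lower, and TMM scaling gave 7 and 31. Without the 3 cells of no lineage UMI, described below, only 4 of the 8 and 23 of the 27 were still called. JCHAIN was among the 8, and its 30 UMIs in 8 wpt all lay in 1 of those cells. In T cells 58 of 9142 (0.634%) were higher and 55 (0.602%) lower, and in NK cells 31 of 7574 (0.409%) and 33 (0.436%). CPOX, a heme synthesis enzyme, was at 15.7 CPM in 4 wpt (5 UMIs in 5 cells) and 157 CPM in 8 wpt (22 UMIs in 11 cells), 9.96-fold higher (3.68 to 33.7), while T cells were at 13.6 and 13.4. RBBP4, a histone-binding chaperone, was at 223 and 513 CPM, 2.3-fold higher (1.63 to 3.23), against 156 and 204 in T cells. ICOS was at 28.3 and 107 CPM, 3.77-fold higher (1.55 to 9.78). CPOX and ICOS lay mainly on the T side, at 211 and 167 CPM in 8 wpt, and RBBP4 was at 844 CPM on the NK side of 8 wpt against 278 in 4 wpt.

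Among the lower genes, IFI27, an interferon-induced gene, was at 204 CPM in 4 wpt and 28.5 in 8 wpt, 7.18-fold lower (2.67 to 27.1). It was also lower in T cells (117 and 57.7 CPM) and NK cells (236 and 91.2), so the direction was common to these classes. H1-2, a linker histone, was at 519 and 121 CPM, 4.29-fold lower (2.60 to 7.54), and 3.21-fold (1.65 to 6.96) without the highest cell of each library. H1-5, another, was at 529 and 85.5 CPM, 6.18-fold lower, but 121 of its 168 UMIs in 4 wpt lay in 1 cell, and without the highest cell of each library it was not called (1.92-fold, 0.957 to 4.26). H3C12 and CST3 went from 23 and 21 UMIs to 0, with 16 of the 23 in 1 cell and 18 of the 21 in the cell without lineage UMIs described next. TRGV10, a T cell receptor gamma variable gene named after its values were seen, was at 321 CPM in 4 wpt (102 UMIs in 16 of 41 cells) and 21.4 CPM in 8 wpt (3 UMIs in 2 of 30), while T cells were at 286 and 355 CPM.

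Of the labelled cells 3 held no UMI of the lineage genes, 1 each in Pre-IS, 4 wpt and 8 wpt. The cell of Pre-IS had 2884 UMIs, with 8 of JCHAIN, the joining chain of secreted antibodies, 3 of MZB1, a plasma cell chaperone, and 5 of MKI67. The cell of 8 wpt had 3717 UMIs, with 30 of JCHAIN, 10 of IRF4, a plasma cell factor, and 6 of MKI67. The cell of 4 wpt had 10727 UMIs, with 6 of KLF1 and 5 of GATA1, erythroid transcription factors, 4 of CD34, a progenitor marker, and 56 of CD74, the invariant chain, and it had none of MKI67, TOP2A, RRM2 or PTPRC. It also had 18 UMIs of CST3 and 17 of CLU, 1 of HBA, and none of the red cell genes ALAS2, AHSP and CA1. The Pre-IS cell had 12 UMIs of PDIA4, more than of JCHAIN, and none of the plasma cell genes IRF4, PRDM1 and SDC1. Antibody-secreting genes were thus present in the Pre-IS and 8 wpt cells and erythroid and progenitor genes in the 4 wpt cell, against the label for each. Not all markers of these cell types were seen, and the named ones were not always the highest.

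Receptor chains could be followed in part of the T side. A T cell receptor beta variable gene was detected in 14 of 25 T-side cells in 4 wpt and 6 of 14 in 8 wpt, against 52.4 and 48.1% of T cells. Of the 20 such genes in the files 8 and 7 were seen, and the most frequent, TRBV9 in 4 wpt, was in 4 cells.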

How the data were processed

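The 4 libraries were made with a 10x Genomics 5' V1 kit and read as 150 bp pairs, per the labels' protocols. Cell Ranger 3.1.0, Seurat 3.2.3 and build Mmul_10 are named in the submitters' processing notes. The authors deposited, for each library, whole-number UMI counts of 15354 genes per cell and a cell label, 9 labels in all. The filters on cells, any removal of doublets and the way labels were given are not stated in the sources used here. Of 2559 rows with an identifier for a name, 400 matched a symbol and 2159 stayed unnamed. The number of sample columns left without a sample was 0. Pre-IS and Post-IS, with 8 and 2 labelled cells, were not used for gene ratios, which needed at least 20 labelled cells in a library.

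UMI counts were summed per label and library and scaled to CPM (Python 3.11.15, numpy 2.4.6, pandas 2.3.3, scipy 1.17.1, matplotlib 3.10.9). Ratios have exact conditional binomial 95% intervals, log2 ratios an offset of 0.5 UMIs, and TMM factors came from edgeR 4.0.16 in R 4.3.3. Shares of cells have exact Clopper-Pearson intervals. UMIs of the label summed to 47982, 2510, 317852 and 140415 in Pre-IS, Post-IS, 4 wpt and 8 wpt. No doublet caller was run. In an alternative, labelled cells with at least 3 UMIs of B cell or monocyte markers were left out. The counting steps were tested on simulated data. These were Poisson counts of class totals without variation between cells. The test therefore does not cover genes whose UMIs lie mainly in single cells.

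Per reference, the genes named were the 15 higher and 10 lower with the interval bound farthest from 1 in both libraries. For 8 wpt against 4 wpt they were up to 5 higher and 5 lower genes. Of the 8 genes higher in 8 wpt only CPOX, RBBP4 and ICOS were left, once the classes given next were passed over. The markers and up to 4 members of each of 38 gene lists were also named. Genes without a symbol were passed over, as were antigen receptor genes of B and T cells and those of ribosomal proteins, mitochondria and hemoglobin, and not all that qualified are described. The members and lists were chosen with earlier results of these data known. The lineage separation, the removal of 3 cells and the removal of single high cells were added after seeing the data. Sequences are not shown, and some genes are not reported here.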

Additional observations from a re-analysis of the deposited data

Results flagged for a closer look

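A pair of T cell receptor beta variable genes stood on opposite sides of T cells in the libraries of 4 wpt and 8 wpt. TRBV9 was at 195 CPM in the proliferating cells of 4 wpt (62 UMIs in 4 cells) against 86.4 in T cells, a ratio of 2.26, and in 8 wpt at 21.4 CPM (3 UMIs) against 197, a ratio of 0.108. TRBV7-9 had no UMI in 4 wpt, a ratio of 0 to the 36.3 CPM of T cells, and in 8 wpt was at 85.5 CPM against 21.5, a ratio of 3.98, with all 12 UMIs in 1 cell. The difference between the libraries was not tested.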

How the results depend on the processing

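No paired analysis was possible because each group is 1 library. All 24 alternative values of the shares of cells stayed within the interval of the reported share. Of 1774 alternative values of the called genes named here, 1720 stayed on the same side of the threshold, and of 1120 list medians 1061 moved little. With another offset or minimum a gene still compared keeps its call, so those values among the 1774 were the same by construction. The point ratio and the 2-fold threshold were not counted among the 1774. The counts of genes in both libraries depended on depth and on the threshold. With cells thinned to 1000 UMIs, which leaves fewer UMIs, 58 genes were higher and 22 lower than in T cells, 36 and 16 than in NK cells and 27 and 2 than in both, and 8 wpt against 4 wpt gave 1 and 5. With a point ratio past 1.5-fold the counts were 1180 and 691 over T cells, 740 and 667 over NK cells, 558 and 235 over both, and 547 and 444 for 8 wpt against 4 wpt. With an interval past 2-fold they were 162 and 17, 138 and 29, and 106 and 2, and 12 genes were lower in 8 wpt. A minimum of 50 UMIs gave 133 higher over NK cells, 105 over both, and 2 and 15 for 8 wpt against 4 wpt. With no minimum 425 were higher over T cells, 407 over NK cells, 314 over both and 31 in 8 wpt against 4 wpt, and the glucocorticoid median over NK cells in 8 wpt became 0.47. TMM scaling gave 130 lower over T cells and 25 over both, a cause not tested beyond the shift given above. Weighting each cell equally gave 6 lower over both, and 26 higher and 41 lower in 8 wpt. Leaving out possible doublets, or the 3 cells without lineage UMIs, each gave 5 genes higher in 8 wpt. In each case 4 of the 5 were among the 8 reported. Without those 3 cells CST3 in 4 wpt over T cells went to −0.014 (log2).

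Setting the T side against T cells and the NK side against NK cells gave 51 genes lower over T cells, 77 higher and 9 lower over NK cells, and 65 higher and 5 lower over both. By construction this turned the T cell markers over NK cells to lower values in 4 wpt and 8 wpt (CD3D −4.29 and −3.16, CD3E −4.39 and −3.41, the T cell list −0.77 and −0.65, all log2). It also turned the NK list (−1.89) and FCER1G (−1.71) over T cells in 8 wpt, IL7R over NK cells in 8 wpt (−2.14), and GNLY over T cells (−0.049 and −2.53). The 2 Post-IS cells set no gene level, and the 11 NK-side cells per library limit what could be called there.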

Other observations

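Some cells with other labels held cycling genes. At least 2 of MKI67, TOP2A and RRM2 were detected in 2 of 114 B cells in 4 wpt. APOBEC3B, a cytidine deaminase, was at 78.7 and 128 CPM in the proliferating NK/T cells of 4 wpt and 8 wpt, against 0.315 and 0.895 CPM in T cells. At an equal depth of 1000 UMIs the median proliferating cell had 619 and 650.5 genes, against 558.5 and 574.5 in T cells and 589 and 598 in NK cells.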
